A study of Mus musculus with 14 samples.

Results

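The transcripts described here encode the intraflagellar transport (IFT) machinery of the cilium, the BBSome and the motors and adaptors that work with them. Members were chosen by gene symbol alone. A probe set, the group of oligonucleotides that reads 1 transcript on the array, was taken where its single symbol began with Ift or Bbs and a digit, or was that of a named partner gene of the IFT, BBSome, dynein-2, kinesin-2 or adaptor groups. This gave 70 of 45101 probe sets, and 40 of the 18193 genes measured, each read through its brightest probe set. The 40 genes lie on 16 chromosomes. For 5 of them, among which are Ift122, Ift27, Ift81, Bbs10 and Lztfl1, the name of the brightest probe set marks a sequence shared between transcripts. Of the named genes, Arl6 and Arl13b were not analysed here.

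Cilia are built and maintained by trains of IFT complexes that run along the microtubules of the axoneme. Kinesin-2 motors carry the trains from base to tip and the dynein-2 motor returns them, with the IFT-B complex serving outward movement and IFT-A the return and the entry of membrane proteins. The BBSome, a coat-like complex named after Bardet-Biedl syndrome, rides on these trains and carries membrane receptors out of the cilium. In the walls of the brain ventricles the machinery serves both the single primary cilium of astrocytes and stem cells and the tufts of motile cilia of ependymal cells, the lining cells that move cerebrospinal fluid.

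The study sorted cells from 8-week-old hGFAP eGFP mice by fluorescence and measured their RNA on 14 Affymetrix arrays. In these mice the promoter of human GFAP, active in astrocytes and in astrocyte-like stem cells, drives green fluorescent protein (GFP), so a GFP sort holds whatever cells that transgene marks. From the subependymal zone (SEZ), the germinal layer beside the lateral ventricle, 4 sorts were taken. SEZ_GFPprom was gated on GFP together with the surface protein prominin and has 4 arrays. SEZ_GFP was gated on GFP, SEZ_Prom on prominin and SEZ_CD24 on the surface protein CD24, and each of them has 2 arrays. DIEC_GFP, with 4 arrays, holds GFP-positive diencephalic cells and stood for astrocytes outside that zone. The labels give the GFP and prominin sorts of the SEZ as neural stem cells and the CD24 sort as ependymal cells. All groups carried the same transgene, and no label names a further treatment.

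Levels below are log2 of the array intensity, and differences are on the same log2 scale. The labels speak of biological replicates and give nothing on separate animals, and the p-values can speak only to the scatter among arrays, part of which may be technical. With 2 to 4 arrays a group, precision is limited throughout. In bulk samples of this kind, fewer cells of a type cannot be told apart from less RNA per cell.

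The label of the CD24 sort was not borne out by marker genes. Of 19 ependymal markers, 18 were lower in SEZ_CD24 than in DIEC_GFP, with a median difference of -3.31, while all 12 neuroblast markers, which include Cd24a itself, were higher, with a median of 4.16. The summed intensity of the ependymal markers was 22442 to 39462 in SEZ_GFPprom, 1548 to 2595 in SEZ_GFP, 1176 to 1919 in SEZ_Prom, 716 to 1316 in SEZ_CD24 and 8633 to 13030 in DIEC_GFP. SEZ_GFPprom, labelled neural stem, thus held the highest ependymal marker signal, 13 of the 19 markers being higher than in DIEC_GFP. SEZ_CD24 is therefore called the CD24 sort below, with no cell type. Where IFT genes move together with the ependymal markers, the part of those cells in the result was not tested.

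The mean level was highest in the cells sorted for GFP and prominin for 5 of 6 IFT-A genes, 6 of 8 genes of the IFT-B core and 6 of 6 peripheral IFT-B genes, Ttc21b and Ift46 being highest in SEZ_GFP and Ift81 in DIEC_GFP. By the moderated F-test over the 5 groups, 19 of the 40 members passed an adjusted p of 0.05, against 25.8% of all genes. They comprised 5 of 6 IFT-A genes, 6 of 8 genes of the IFT-B core, 3 of 6 peripheral IFT-B genes, 2 of 4 dynein-2 genes, 1 of 7 BBSome genes, 1 of 2 chaperonin-like BBS genes, 1 of 3 adaptor and small GTPase genes and 0 of 4 kinesin-2 genes. The SEZ_GFPprom mean was the highest of the 5 groups for 28 members (24.3% of all genes). The lowest mean fell to the CD24 sort for 16 members (26.9% of all genes) and to SEZ_Prom for 15 (17.6% of all genes). With 1 array left out, the F-test passed 16 to 20 members. Wdr19 and Tulp3 each kept their pass in only 2 of those 14 fits, and in 5 and 4 of 11 other settings. Ift122 and Bbs10 lost theirs without probe sets of shared sequence.

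**Figure D1:**
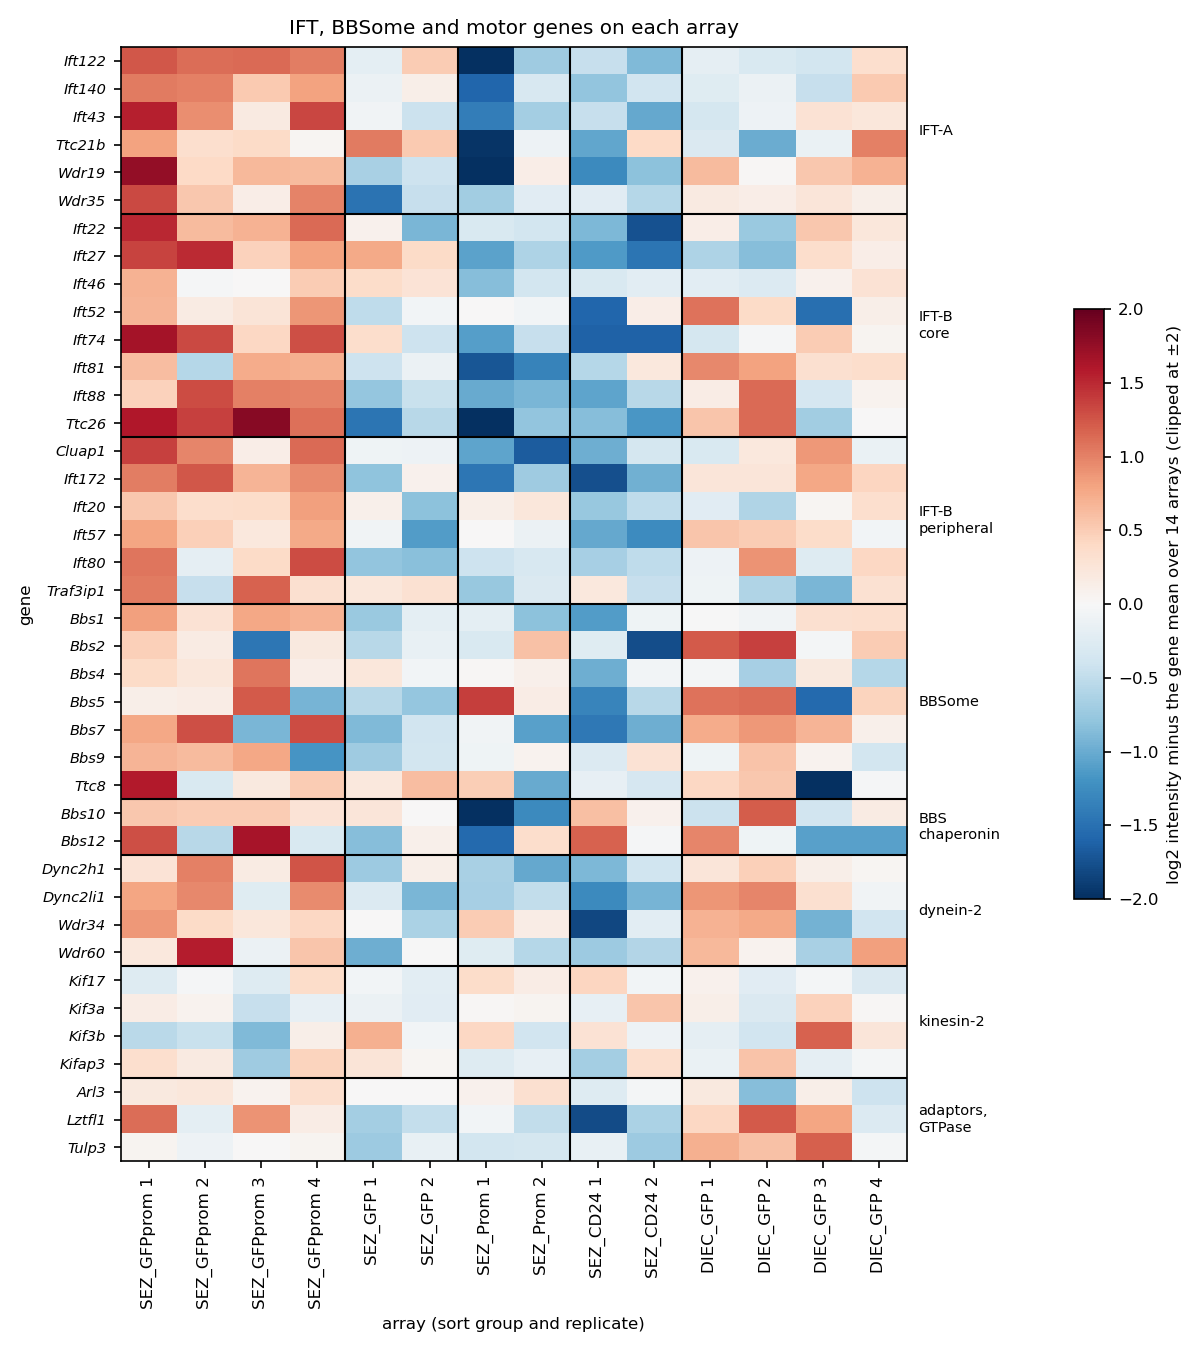
Each row is 1 of the 40 genes, grouped by complex, and each column is 1 array; colour gives the log2 intensity minus the mean of that gene over the 14 arrays, clipped at 2 in either direction. The 4 SEZ_GFPprom columns are red for most IFT-A and IFT-B rows, the SEZ_Prom and SEZ_CD24 columns are mostly blue there, and the 4 kinesin-2 rows are pale on most arrays, Kif3b on DIEC_GFP replicate 3 being the reddest of their cells.

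IFT-A is the complex that turns trains back at the tip. Its subunit Ift122 measured 9.64, 9.51, 9.54 and 9.42 in SEZ_GFPprom, 8.20 and 8.91 in SEZ_GFP, 6.15 and 7.68 in SEZ_Prom, 7.94 and 7.52 in SEZ_CD24 and 8.21, 8.09, 8.02 and 8.73 in DIEC_GFP. All 4 SEZ_GFPprom arrays lay above every other array and within a narrow range (mean 9.53 ± 0.09, SD, n = 4), and the SEZ_Prom pair was spread the widest. The F-test gave Ift122 an adjusted p of 0.00269. Ift140, also of IFT-A, read 9.71, 9.68, 9.19 and 9.47 in SEZ_GFPprom, 8.56 and 8.79 in SEZ_GFP, 7.08 and 8.35 in SEZ_Prom, 7.88 and 8.29 in SEZ_CD24 and 8.42, 8.56, 8.20 and 9.19 in DIEC_GFP. SEZ_GFPprom lay above all arrays of the other SEZ groups, while its lowest array equalled the highest of DIEC_GFP to the decimals shown, and its adjusted p over the 5 groups was 0.014.

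The small subunit Ift43 had levels of 10.13, 9.5, 8.75 and 9.90 in SEZ_GFPprom, 8.49 and 8.13 in SEZ_GFP, 7.18 and 7.88 in SEZ_Prom, 8.11 and 7.54 in SEZ_CD24 and 8.21, 8.47, 8.85 and 8.79 in DIEC_GFP. SEZ_GFPprom stood above the 3 other SEZ sorts but reached down into the DIEC_GFP range through its replicate 3 (F-test adjusted p = 0.00753). Wdr35, which belongs to IFT-A as well, measured 9.67, 8.89, 8.49 and 9.34 in SEZ_GFPprom, 6.87 and 7.89 in SEZ_GFP, 7.66 and 8.13 in SEZ_Prom, 8.13 and 7.79 in SEZ_CD24 and 8.54, 8.49, 8.59 and 8.47 in DIEC_GFP. SEZ_GFP was lowest on average, and the DIEC_GFP arrays, which barely differed from each other, overlapped the lowest of SEZ_GFPprom (adjusted p = 0.0149). Wdr19 was the fifth IFT-A gene to pass, at an adjusted p of 0.0422, with a mean of 7.86 ± 0.61 in SEZ_GFPprom (SD, n = 4) and 5.96 ± 0.33 in the CD24 sort (SD, n = 2). Ttc21b did not pass (0.257), with means of 7.22 ± 0.32 in SEZ_GFPprom (SD, n = 4) and 7.61 ± 0.36 in SEZ_GFP (SD, n = 2).

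The IFT-B core carries tubulin and holds the train together. Ift74, which pairs with Ift81 to bind tubulin, measured 9.40, 9.05, 8.15 and 9.03 in SEZ_GFPprom, 8.08 and 7.31 in SEZ_GFP, 6.63 and 7.28 in SEZ_Prom, 6.11 and 6.11 in SEZ_CD24 and 7.38, 7.70, 8.24 and 7.78 in DIEC_GFP. Both CD24 arrays read the same value, below every other array, and SEZ_GFPprom overlapped DIEC_GFP through its replicate 3 alone. Its F-test adjusted p was 0.00153. Ttc26, known from mutant mice and fish for the build-up of motile cilia, had levels of 7.15, 6.92, 7.37 and 6.64 in SEZ_GFPprom, 4.09 and 5.0 in SEZ_GFP, 3.46 and 4.75 in SEZ_Prom, 4.70 and 4.39 in SEZ_CD24 and 6.11, 6.69, 4.86 and 5.55 in DIEC_GFP. The SEZ_GFPprom values were above all those of the other SEZ sorts by a wide margin and overlapped DIEC_GFP at that group's replicate 2 (adjusted p = 0.00338).

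Ift27, a Rab-like small GTPase that links IFT-B to the BBSome, read 10.98, 11.12, 10.08 and 10.42 in SEZ_GFPprom, 10.38 and 10.01 in SEZ_GFP, 8.56 and 9.01 in SEZ_Prom, 8.49 and 8.16 in SEZ_CD24 and 9.01, 8.76, 9.97 and 9.75 in DIEC_GFP. SEZ_GFPprom and SEZ_GFP shared the upper range, DIEC_GFP lay below all SEZ_GFPprom arrays, and the CD24 sort was lowest. For Ift27 the adjusted p was 0.00373. Ift88, the gene disrupted in the orpk mouse model of ciliary disease, measured 7.69, 8.54, 8.24 and 8.24 in SEZ_GFPprom, 6.46 and 6.79 in SEZ_GFP, 6.23 and 6.32 in SEZ_Prom, 6.19 and 6.69 in SEZ_CD24 and 7.39, 8.37, 6.91 and 7.30 in DIEC_GFP. The SEZ_GFP, SEZ_Prom and CD24 arrays all lay below the lowest SEZ_GFPprom array, and DIEC_GFP lay above them and overlapped SEZ_GFPprom (adjusted p = 0.00563). Ift22, another Rab-like GTPase of the core, gave 9.44, 8.56, 8.63 and 9.07 in SEZ_GFPprom, 8.02 and 7.02 in SEZ_GFP, 7.62 and 7.56 in SEZ_Prom, 7.03 and 6.19 in SEZ_CD24 and 8.06, 7.19, 8.48 and 8.15 in DIEC_GFP. All SEZ_GFPprom arrays were above the rest, and the CD24 sort had the lowest mean and overlapped SEZ_GFP (adjusted p = 0.0104). Ift81 also passed, at 0.011, with SEZ_Prom lowest at 7.04 ± 0.27 (SD, n = 2). Ift46 (0.0757) and Ift52 (0.552) did not.

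The peripheral IFT-B proteins link the core to kinesin and to cargo. Ift172, the largest of them, measured 8.63, 8.85, 8.29 and 8.55 in SEZ_GFPprom, 6.81 and 7.70 in SEZ_GFP, 6.17 and 6.89 in SEZ_Prom, 5.86 and 6.64 in SEZ_CD24 and 7.85, 7.86, 8.39 and 8.03 in DIEC_GFP. SEZ_GFPprom overlapped DIEC_GFP only where its replicate 3 met that group's, and the 3 other SEZ sorts lay below both. Ift172 had the smallest F-test adjusted p of all members, 0.00101. Ift57 read 9.54, 9.24, 8.96 and 9.51 in SEZ_GFPprom, 8.68 and 7.64 in SEZ_GFP, 8.76 and 8.64 in SEZ_Prom, 7.73 and 7.5 in SEZ_CD24 and 9.31, 9.26, 9.13 and 8.71 in DIEC_GFP. This transcript separated the groups in another way, with SEZ_GFPprom, SEZ_Prom and DIEC_GFP close together and the CD24 sort below them (adjusted p = 0.00551). Cluap1, which sits in the same subcomplex, measured 9.08, 8.68, 7.84 and 8.85 in SEZ_GFPprom, 7.63 and 7.61 in SEZ_GFP, 6.66 and 6.04 in SEZ_Prom, 6.74 and 7.36 in SEZ_CD24 and 7.41, 7.92, 8.58 and 7.58 in DIEC_GFP. SEZ_Prom was lowest and DIEC_GFP overlapped SEZ_GFPprom (adjusted p = 0.00818). Ift20, which also resides at the Golgi and sends membrane proteins to the cilium, had 8.03, 7.84, 7.86 and 8.31 in SEZ_GFPprom, 7.59 and 6.67 in SEZ_GFP, 7.61 and 7.72 in SEZ_Prom, 6.73 and 6.98 in SEZ_CD24 and 7.27, 6.89, 7.53 and 7.82 in DIEC_GFP. The SEZ_GFPprom arrays exceeded all others, DIEC_GFP replicate 4 coming closest, and the F-test missed the threshold at 0.0526, as did those of Ift80 (0.0555) and Traf3ip1 (0.285).

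**Figure D2:**
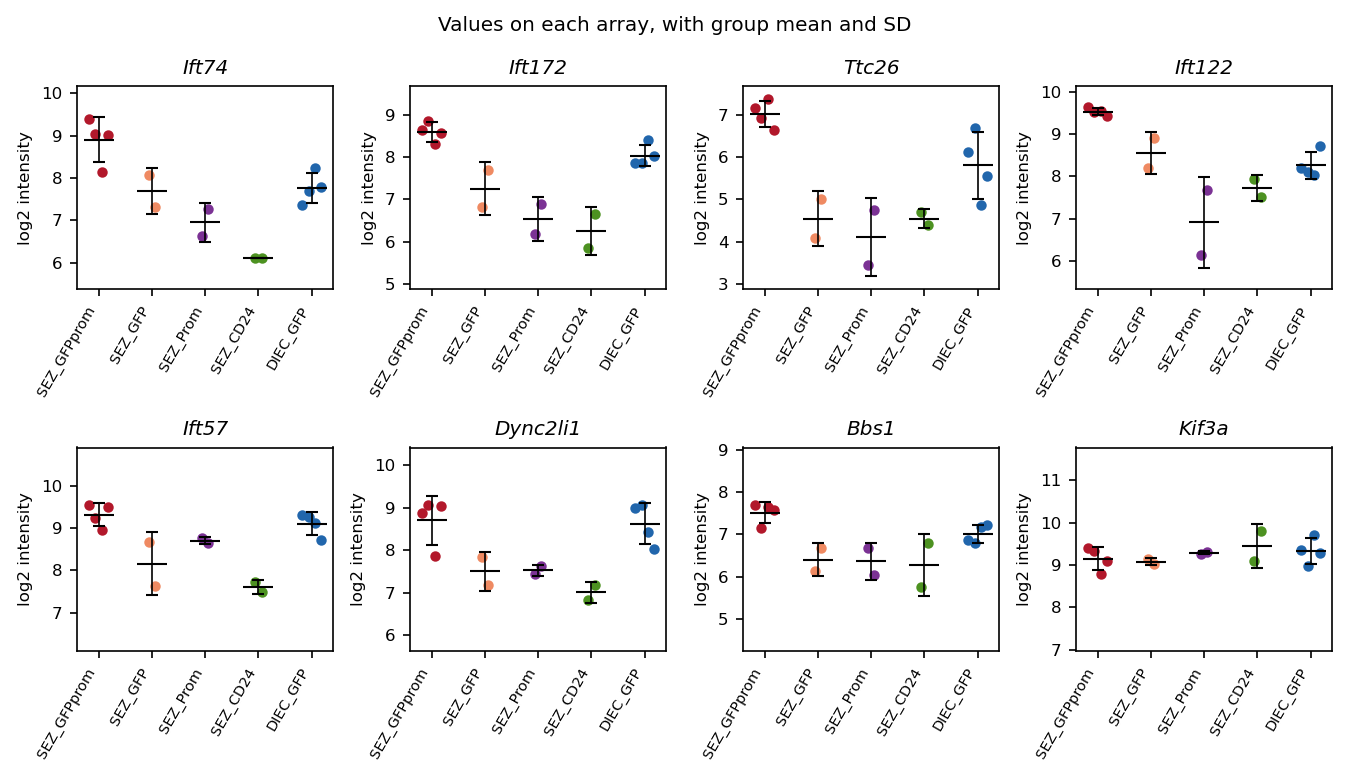
Log2 intensity of 8 members on every array (dots) by sort group, with the group mean (long bar) and SD (whiskers); each panel has its own axis, drawn to the same length in log2 units. Ift74, Ift172, Ttc26 and Ift122 are highest in SEZ_GFPprom, Ift57 and Dync2li1 overlap between SEZ_GFPprom and DIEC_GFP, and the SEZ_GFPprom range of Kif3a overlaps that of each other group.

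RefSeq promoter sequences (GRCm38.p6, 250 bases before to 50 after the start of the gene) are shown for 4 IFT-B genes because all 4 transcripts were called higher in SEZ_GFPprom than in the CD24 sort and each promoter holds the letters of an X-box, the motif bound by RFX factors at many ciliary genes. Capitals mark the matches on either strand.
Ttc26, chr6:38381274-38381573, plus strand: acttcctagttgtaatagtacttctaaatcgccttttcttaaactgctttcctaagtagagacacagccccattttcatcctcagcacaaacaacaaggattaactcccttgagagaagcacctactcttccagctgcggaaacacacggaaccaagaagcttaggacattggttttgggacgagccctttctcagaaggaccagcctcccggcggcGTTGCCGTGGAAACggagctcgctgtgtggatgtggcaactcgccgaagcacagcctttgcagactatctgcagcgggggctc
Ift57, chr16:49699044-49699343, plus strand: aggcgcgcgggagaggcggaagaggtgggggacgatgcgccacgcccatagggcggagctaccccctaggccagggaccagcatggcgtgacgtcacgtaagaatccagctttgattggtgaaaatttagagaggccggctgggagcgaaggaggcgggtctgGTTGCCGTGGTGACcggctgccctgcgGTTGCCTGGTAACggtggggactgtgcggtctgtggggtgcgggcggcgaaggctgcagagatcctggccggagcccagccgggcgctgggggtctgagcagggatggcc
Ift22, chr5:136907900-136908199, plus strand: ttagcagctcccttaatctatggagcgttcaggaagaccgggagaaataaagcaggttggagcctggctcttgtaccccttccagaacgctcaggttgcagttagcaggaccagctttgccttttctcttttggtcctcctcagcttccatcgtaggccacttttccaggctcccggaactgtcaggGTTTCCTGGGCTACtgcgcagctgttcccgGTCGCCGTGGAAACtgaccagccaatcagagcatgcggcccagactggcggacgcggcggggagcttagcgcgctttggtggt
Ift74, chr4:94614241-94614540, plus strand: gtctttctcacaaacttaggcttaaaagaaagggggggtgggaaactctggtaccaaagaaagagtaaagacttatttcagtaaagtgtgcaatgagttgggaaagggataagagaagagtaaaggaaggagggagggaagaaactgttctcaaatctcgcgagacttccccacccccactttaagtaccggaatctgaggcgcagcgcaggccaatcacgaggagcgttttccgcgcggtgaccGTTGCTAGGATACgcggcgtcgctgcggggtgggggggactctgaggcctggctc

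A sequence was available for 36 of the 40 members. The X-box was searched as GTNNCC, then 0 to 3 bases of any kind, then NGNAAC, on both strands. It occurred in 9 of 36 member promoters (25%), namely those of Bbs1, Bbs4, Bbs7, Ift22, Ift57, Ift74, Kif17, Lztfl1 and Ttc26, and in 5.25% of all 32851 promoters. A narrower form, GTNGCC and GGNAAC with the same spacing, whose matches lie within those of the first, occurred in 7 of 36 members and in 0.947% of all promoters. Among members that passed the F-test 5 of 16 held the first form, and among those that did not 4 of 20 did. The forkhead letters TGTTTAC, on both strands, were in 0 of 36 member promoters and in 3.65% of all. These letter patterns were chosen with the results known, and a match is no evidence of binding. The set of all promoters was not limited to the 18193 genes measured, so the shares compare unlike sets.

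Among the 7 BBSome genes 1 passed the F-test, and whether the complexes differ in this share was not tested. Bbs1, the subunit mutated most often in Bardet-Biedl syndrome, measured 7.68, 7.15, 7.64 and 7.56 in SEZ_GFPprom, 6.13 and 6.67 in SEZ_GFP, 6.67 and 6.04 in SEZ_Prom, 5.75 and 6.78 in SEZ_CD24 and 6.86, 6.79, 7.18 and 7.21 in DIEC_GFP. SEZ_GFPprom lay above the other SEZ sorts, with its replicate 2 inside the range of DIEC_GFP, and Bbs1 was the gene that passed the F-test (0.0235). Bbs7 read 7.11, 7.63, 5.43 and 7.65 in SEZ_GFPprom, 5.46 and 5.95 in SEZ_GFP, 6.27 and 5.25 in SEZ_Prom, 4.91 and 5.36 in SEZ_CD24 and 7.09, 7.20, 7.02 and 6.44 in DIEC_GFP. SEZ_GFPprom replicate 3 lay far below the other replicates and inside the SEZ_Prom range, and the F-test gave 0.0642. The remaining 5 BBSome genes, Bbs2, Bbs4, Bbs5, Bbs9 and Ttc8, had adjusted p-values of 0.183 to 0.74.

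Bbs10, a chaperonin-like protein needed to assemble the BBSome, had levels of 5.61, 5.58, 5.58 and 5.36 in SEZ_GFPprom, 5.32 and 5.09 in SEZ_GFP, 3.0 and 3.81 in SEZ_Prom, 5.67 and 5.17 in SEZ_CD24 and 4.64, 6.29, 4.70 and 5.25 in DIEC_GFP. Both SEZ_Prom arrays were far below all the others and near the array background, where intensities of 10 or less are rounded to few steps (adjusted p = 0.0163). Bbs12, of the same family, did not pass (0.614) and spread from 3.00 to 6.19 over the arrays.

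The SEZ_GFPprom mean was the highest of the 5 for all 4 genes of the dynein-2 motor. Its heavy chain, Dync2h1, measured 7.62, 8.36, 7.52 and 8.60 in SEZ_GFPprom, 6.61 and 7.47 in SEZ_GFP, 6.70 and 6.32 in SEZ_Prom, 6.44 and 6.95 in SEZ_CD24 and 7.59, 7.82, 7.47 and 7.39 in DIEC_GFP. Every SEZ_GFPprom array was above the 3 other SEZ sorts and DIEC_GFP overlapped both SEZ_GFPprom and SEZ_GFP (adjusted p = 0.0204). The light intermediate chain Dync2li1 read 8.88, 9.06, 7.85 and 9.05 in SEZ_GFPprom, 7.83 and 7.18 in SEZ_GFP, 7.43 and 7.61 in SEZ_Prom, 6.83 and 7.17 in SEZ_CD24 and 8.99, 9.07, 8.42 and 8.03 in DIEC_GFP. SEZ_GFPprom and DIEC_GFP covered the same range, and the 3 other SEZ sorts lay below both, the CD24 sort with the lowest mean (adjusted p = 0.0144). The intermediate chains Wdr34 (0.234) and Wdr60 (0.223) did not pass.

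Of the 4 transcripts of the kinesin-2 motor, read through their brightest probe sets, 0 passed the limma F-test. At an unadjusted p of 0.05, 0 passed that test as well. The adjusted p-values were 0.773 for Kif3a and 0.524 for Kif3b, the motor subunits, 0.899 for their accessory subunit Kifap3 and 0.538 for the homodimeric Kif17. Kif3a measured 9.40, 9.32, 8.79 and 9.09 in SEZ_GFPprom, 9.14 and 9.03 in SEZ_GFP, 9.27 and 9.32 in SEZ_Prom, 9.09 and 9.82 in SEZ_CD24 and 9.37, 8.97, 9.71 and 9.29 in DIEC_GFP. The range of SEZ_GFPprom covered those of SEZ_GFP and SEZ_Prom and overlapped both other groups. Between SEZ_GFPprom and DIEC_GFP the difference for Kif3a was -0.18 with a 95% interval of -0.64 to 0.28, and for Kif17 it was 0.07 with an interval of -0.33 to 0.47. For Kif3b the difference was -0.65 with an interval of -1.42 to 0.12, the widest of the 4, so these arrays do not show that the levels are alike. Another probe set of Kifap3 did not behave like the brightest one. Its SEZ_GFPprom minus DIEC_GFP difference was 1.34 (adjusted p = 0.0298, each probe set tested separately, a setting chosen after seeing the data), against 0.012 for the brightest. Against SEZ_GFP, SEZ_Prom and SEZ_CD24 that probe set was higher by 0.34, 1.36 and 1.45. For Kif3a, 1 other probe set was higher in SEZ_GFPprom than in every other group, by 0.67 to 1.05. Minus SEZ_CD24, the remaining ones of Kif3a read 0.18 and -0.48, and those of Kif3b -1.27, 0.43 and -0.18. The kinesin-2 differences thus depend on the probe set read.

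Among the adaptors, Tulp3, which brings membrane receptors to IFT-A for entry, measured 7.22, 7.07, 7.17 and 7.23 in SEZ_GFPprom, 6.44 and 7.01 in SEZ_GFP, 6.79 and 6.82 in SEZ_Prom, 7.02 and 6.44 in SEZ_CD24 and 7.87, 7.75, 8.37 and 7.13 in DIEC_GFP. DIEC_GFP was the highest group, though its replicate 4 lay within the SEZ_GFPprom range, and the adjusted p was 0.0451. Lztfl1, a regulator of BBSome entry into cilia, read 8.15, 6.85, 7.94 and 7.19 in SEZ_GFPprom, 6.36 and 6.57 in SEZ_GFP, 6.99 and 6.55 in SEZ_Prom, 5.25 and 6.41 in SEZ_CD24 and 7.46, 8.26, 7.83 and 6.77 in DIEC_GFP. SEZ_GFPprom and DIEC_GFP spanned the same range, with SEZ_CD24 replicate 1 below all others (adjusted p = 0.0514). Its other probe sets disagreed among themselves. One of them was lower in SEZ_GFPprom than in DIEC_GFP, by -2.55 (adjusted p = 0.0352 over all probe sets), and another differed over the 5 groups with an adjusted p of 0.0016. Between SEZ_GFPprom and the CD24 sort, the brightest was called higher at 1.70. The other probe sets that went the same way read 1.77 and 1.34, and those that went the opposite way read -0.81 and -0.058 (neither called). Arl3, the small GTPase that releases lipid-bound cargo inside the cilium, did not pass (0.433).

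SEZ_GFPprom against DIEC_GFP sets the double-positive SEZ cells beside the GFP-positive cells of the diencephalon, which stood for astrocytes. Astrocyte markers summed to 21323 to 40491 in DIEC_GFP. Oligodendrocyte markers summed to 32012 to 45237 there and oligodendrocyte progenitor markers to 10652 to 14044, so markers of other cells were present too. Higher levels were called for 5 members (10.1% of all genes were called higher) and lower levels for 0 (7.78% of all genes), so the share of members, 5 of 40, was near the background. The 5 were Ift27, at 1.27 ± 0.31 (SE, adjusted p = 0.015), Ift122, at 1.26 ± 0.30 (SE, adjusted p = 0.0142), Ift74, at 1.13 ± 0.29 (SE, adjusted p = 0.0212), Ift43, at 0.99 ± 0.30 (SE, adjusted p = 0.0412), and Ift140, at 0.92 ± 0.28 (SE, adjusted p = 0.0446). They amount to 1.89-fold to 2.42-fold. At an unadjusted p of 0.05 limma passed 12 members higher and 1 lower, Tulp3. The share of all genes at that unadjusted threshold was not counted, here or in the comparisons below, so these counts have no background. The median difference over the 40 members was 0.45 and over all genes 0.084, and 33 members were positive (57.6% of all genes). The groups did not overlap for 5 members (11.6% of all genes, higher).

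Ift27 and Ift122 kept their calls with any 1 of the 14 arrays left out, whereas Ift74 kept it in 9 of 14 such fits, Ift43 in 6 and Ift140 in 4. The count was 2 without SEZ_GFPprom replicate 1, SEZ_GFPprom replicate 4 or DIEC_GFP replicate 1, and 3 without SEZ_GFPprom replicate 2 or either SEZ_GFP array. The 3′ to 5′ signal ratio of control transcripts, a measure of RNA length, averaged 4.94 ± 0.18 (SD, n = 4) in SEZ_GFPprom and 5.40 ± 0.29 (SD, n = 4) in DIEC_GFP on the log2 scale. With that ratio as a covariate 0 of these 5 kept their calls and 1 other member, Bbs4, was called. The share of all genes called, in either direction, went from 17.8% to 8.17%. Without probe sets of shared sequence the calls of Ift27 and Ift122 were lost. Over the ependymal markers the median difference was 1.67. Over 32 genes of the axonemal dynein arms of motile cilia and of their assembly it was 0.99, with 8 called higher. This list is called axonemal dynein genes below. Of the neuroblast markers 8 of 12 were called higher (median 1.95) and of the proliferation genes 8 of 9 (median 4.22). Called lower were 7 of 9 oligodendrocyte markers (median -2.13), 7 of 7 oligodendrocyte progenitor markers (median -3.22) and 7 of 14 astrocyte markers (median -1.27), and the part of these cells in the result was not tested.

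SEZ_GFPprom against SEZ_GFP sets the sort gated on GFP and prominin beside the sort gated on GFP, both from the SEZ. Here 4 members were called higher (2.63% of all genes) and 0 lower (0.539%). They were Ttc26, at 2.48 ± 0.49 (SE, adjusted p = 0.0153), Wdr35, at 1.71 ± 0.34 (SE, adjusted p = 0.0153), Ift88, at 1.55 ± 0.36 (SE, adjusted p = 0.0367), and Ift172, at 1.33 ± 0.32 (SE, adjusted p = 0.0455), or 2.51-fold to 5.56-fold. At an unadjusted p of 0.05 limma passed 19 members higher and 0 lower, with no share of all genes counted. The median over the members was 0.86, against 0.066 over all genes. For 23 members the groups did not overlap, all higher in SEZ_GFPprom (15.9% of all genes).

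These calls rest on a pair of SEZ_GFP arrays. Without SEZ_GFP replicate 1 and also without SEZ_GFP replicate 2, 1 member was called, with the lone array then assumed to vary like the other groups. It was Wdr35 without replicate 2, and without replicate 1 it was Ift57, so that 0 of the 4 kept their calls. Without SEZ_GFPprom replicate 3 the count was 8, and without DIEC_GFP replicate 1 it was 2. Axonemal dynein genes had 19 of 32 called higher (median 2.50), and 18 of 19 ependymal markers were called higher. Neuroblast markers were called lower for 3 of 12 and oligodendrocyte markers higher for 2 of 9.

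Against SEZ_Prom, the prominin sort with no stated GFP gate, SEZ_GFPprom was higher for 13 members (4.4% of all genes) and lower for 0 (2.76%). The largest differences were those of Ttc26, at 2.91 ± 0.49 (SE, adjusted p = 0.0044), Ift122, at 2.61 ± 0.37 (SE, adjusted p = 0.00152), and Cluap1, at 2.26 ± 0.39 (SE, adjusted p = 0.00499), which are 7.53-fold, 6.11-fold and 4.8-fold. Ift172, Ift43, Ift74, Ift88, Ift81, Ift27, Ift140, Bbs10 and Dync2h1 followed, between 1.51 and 2.13. Bbs1 had the smallest called difference, 1.15 ± 0.30 (SE, adjusted p = 0.0433). Without adjustment, 22 members were higher and 0 lower at a limma p of 0.05, with no share of all genes counted. The median was 1.08 over the members and 0.038 over all genes, and 26 members did not overlap, all higher (16.5% of all genes).

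In this comparison Ift122 alone kept its call without any 1 array, and it lost it, as did Ift27, Ift81 and Bbs10, without probe sets of shared sequence. The count was 2 without SEZ_Prom replicate 1 and 8 without SEZ_Prom replicate 2. Of the axonemal dynein genes 17 of 32 were called higher (median 2.42), and of the ependymal markers 18 of 19. Oligodendrocyte markers summed to 10136 to 15314 in SEZ_GFPprom and to 34582 to 36397 in SEZ_Prom. Choroid plexus markers summed to 421 to 7754 and 12880 to 13426 in the same groups, with 4 of 8 called lower in SEZ_GFPprom. Mature neuron markers summed to 2781 to 6022 and 11166 to 11723, with 0 of 10 called. The part of all these cells in the result was not tested.

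SEZ_GFPprom against the CD24 sort gave the most member calls of the 7 comparisons. Higher levels were called for 19 members (8.98% of all genes) and lower levels for 0 (4.74%), of which IFT-A gave 5 of 6, the IFT-B core 5 of 8, peripheral IFT-B 4 of 6, the BBSome 2 of 7, dynein-2 2 of 4 and the adaptors 1 of 3. Ift74 differed by 2.80 ± 0.36 (SE, adjusted p = 0.000472), Ttc26 by 2.47 ± 0.49 (SE, adjusted p = 0.0067), Ift172 by 2.33 ± 0.32 (SE, adjusted p = 0.000727), Ift27 by 2.32 ± 0.38 (SE, adjusted p = 0.00213) and Ift22 by 2.31 ± 0.40 (SE, adjusted p = 0.0034), or 4.96-fold to 6.96-fold. At the other end were Wdr35, at 1.14 ± 0.34 (SE, adjusted p = 0.0447), Ift20, at 1.16 ± 0.29 (SE, adjusted p = 0.0227), and Bbs1, at 1.24 ± 0.30 (SE, adjusted p = 0.0203). Ift57, at 1.69 ± 0.29 (SE, adjusted p = 0.00291), and Dync2li1, at 1.71 ± 0.38 (SE, adjusted p = 0.0128), lay between. Unadjusted limma p-values under 0.05 numbered 24 higher and 0 lower among the members, with no share of all genes counted. The median over members was 1.21, against 0.096 over all genes, and 27 members did not overlap, all higher (20.8% of all genes).

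Ift27, Ift74, Ift172 and Ift57 kept their calls with any 1 array left out. The count was 8 without SEZ_CD24 replicate 1 and 8 without SEZ_CD24 replicate 2. Bbs7 (difference 1.82, adjusted p = 0.0468) kept its call in 1 of 14 fits, Wdr35 in 3 and Wdr19 in 4. Axonemal dynein genes had 24 of 32 called higher (median 2.57) and ependymal markers 18 of 19 (median 4.95). Astrocyte markers were called higher for 9 of 14 and oligodendrocyte markers for 4 of 9. Neuroblast markers went the other way, 10 of 12 being called lower in SEZ_GFPprom, and microglial markers summed to 2322 to 4183 in SEZ_GFPprom against 13357 to 26764 in the CD24 sort. Choroid plexus markers summed to 421 to 7754 and 9212 to 14865 in the same groups, with 4 of 8 called lower in SEZ_GFPprom. The part of these cells in the result was not tested. Ift122, at 1.80 ± 0.37 (SE, adjusted p = 0.00814), lost its call without probe sets of shared sequence.

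**Figure D3:**
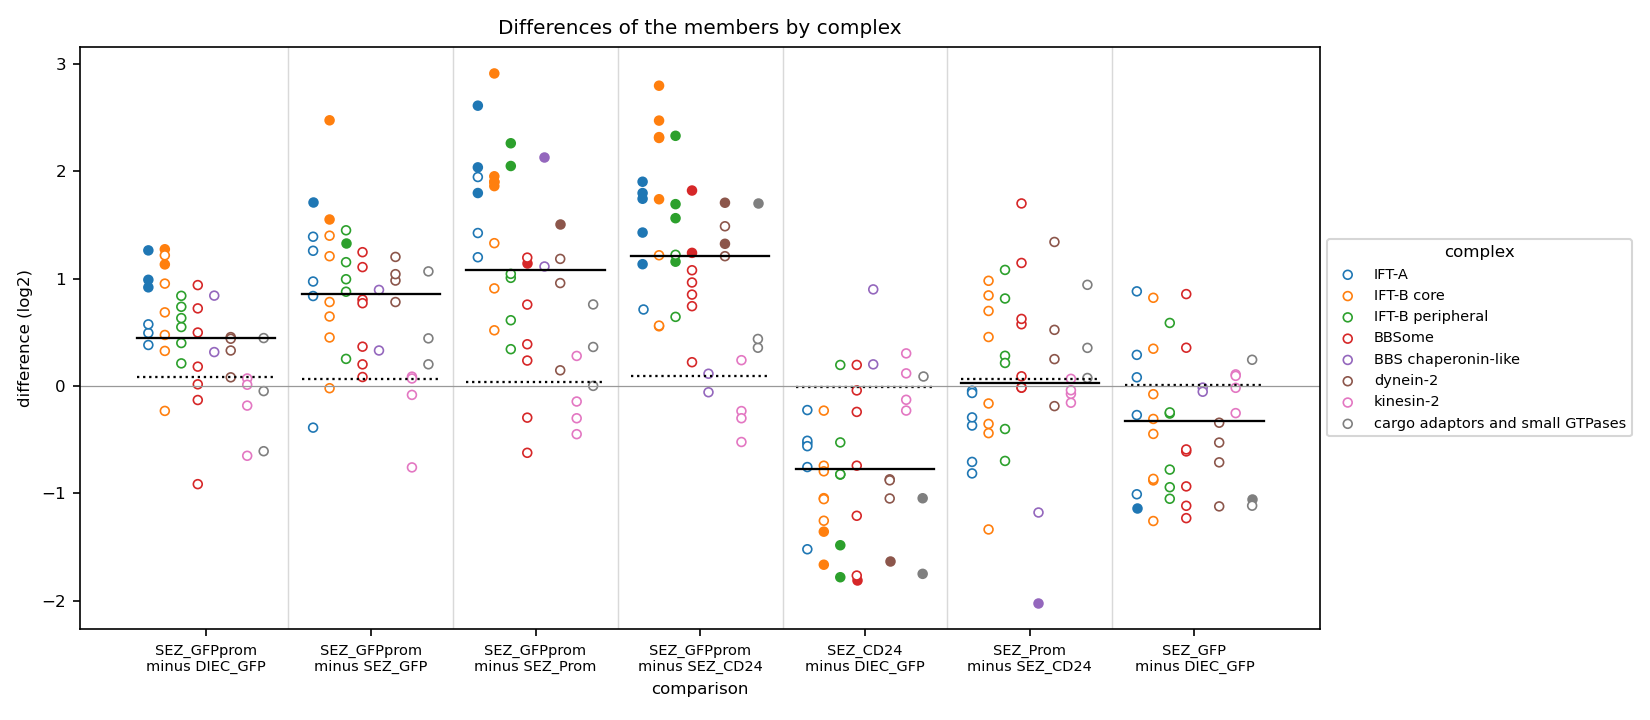
Difference in log2 intensity of each member (circles, coloured by complex) in the 7 comparisons, each taken as the axis label states; filled circles passed an adjusted p of 0.05, solid bars are the median of the 40 members and dotted bars that of all genes. The 4 comparisons of SEZ_GFPprom have member medians of 0.45 to 1.21 and filled circles above 0 alone, and the kinesin-2 circles lie near 0 or below it. The 4 comparisons share the SEZ_GFPprom arrays.

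The CD24 sort against DIEC_GFP, labelled as ependymal cells and astrocytes, gave 8 members lower in the CD24 sort (9.74% of all genes) and 0 higher (6.9%). Bbs7 differed by -1.81 ± 0.55 (SE, adjusted p = 0.0419), Ift172 by -1.78 ± 0.32 (SE, adjusted p = 0.00256), Lztfl1 by -1.75 ± 0.47 (SE, adjusted p = 0.0235), Ift74 by -1.67 ± 0.36 (SE, adjusted p = 0.00757) and Dync2li1 by -1.63 ± 0.38 (SE, adjusted p = 0.0122). Ift57, at -1.48 ± 0.29 (SE, adjusted p = 0.00406), Ift22, at -1.36 ± 0.40 (SE, adjusted p = 0.0383), and Tulp3, at -1.05 ± 0.30 (SE, adjusted p = 0.0316), completed the set. Levels in DIEC_GFP were 2.06-fold to 3.5-fold those in the CD24 sort. By unadjusted limma p under 0.05, 15 members were lower and 0 higher, with no share of all genes counted. The member median was -0.78, against -0.014 over all genes, and 21 members did not overlap, all lower in the CD24 sort (16.6% of all genes).

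Ift172 and Ift57 kept these calls with any 1 array left out. The count was 4 without SEZ_CD24 replicate 2 and 5 without DIEC_GFP replicate 1. Axonemal dynein genes had 15 of 32 called lower in the CD24 sort (median -1.58), and 18 of 19 ependymal markers were called lower. Also called lower in the CD24 sort were 13 of 14 astrocyte markers (median -3.16), 8 of 9 oligodendrocyte markers (median -4.28) and 7 of 7 oligodendrocyte progenitor markers (median -3.26), while 8 of 9 proliferation genes were called higher (median 3.62). Among markers of other cells in the CD24 sort, erythrocyte genes summed to 3509 to 9020 there, against 48 to 103 in DIEC_GFP, and the part of all these cells in the result was not tested.

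SEZ_Prom and the CD24 sort, both taken from the SEZ by a surface protein, differed in 1 member. Bbs10 was lower in SEZ_Prom by -2.02 ± 0.46 (SE, adjusted p = 0.0308), where 2.1% of all genes were called lower and 3.43% higher. With values under 10 set to 10 the difference was -1.86 and no longer called, and it was lost without any 1 of the 4 arrays of these groups. The count was 2 without SEZ_GFPprom replicate 2 or either SEZ_GFP array. The groups did not overlap for 13 members that were higher in SEZ_Prom (27.2% of all genes) and 4 that were lower (19.6%). The median over members was 0.026 and over all genes 0.069. Neuroblast markers were called lower in SEZ_Prom for 10 of 12 and oligodendrocyte markers higher for 8 of 9.

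SEZ_GFP against DIEC_GFP sets the GFP sort of the germinal zone beside that of the diencephalon. Lower levels in SEZ_GFP were called for 2 members (7.05% of all genes), Wdr35, at -1.14 ± 0.34 (SE, adjusted p = 0.0464), and Tulp3, at -1.05 ± 0.30 (SE, adjusted p = 0.0381), and higher levels for 0 (5.61%). Wdr35 kept its call in 3 of 14 fits that left out an array and Tulp3 in 4. The count was 5 without SEZ_GFPprom replicate 3. It was 1 without SEZ_GFPprom replicate 1, either SEZ_GFP array, either SEZ_CD24 array or DIEC_GFP replicate 3, and without SEZ_GFP replicate 1 or DIEC_GFP replicate 3 that member was neither Wdr35 nor Tulp3. It was 0 without SEZ_GFPprom replicate 2 or 4, either SEZ_Prom array or DIEC_GFP replicate 1 or 2. By unadjusted limma p under 0.05, 11 members were lower and 1 higher, Ift27, with no share of all genes counted. The member median was -0.32 (0.0049 over all genes), and 13 members did not overlap, all lower in SEZ_GFP (16.4% of all genes), besides 1 that was higher (15.7%). Of the axonemal dynein genes 14 of 32 were called lower, with a median of -1.49, and of the ependymal markers 16 of 19. Oligodendrocyte markers were called lower for 9 of 9 (median -3.40) and astrocyte markers for 7 of 14 (median -1.48), while 12 of 12 neuroblast markers (median 3.85) and 9 of 9 proliferation genes (median 4.84) were called higher. The part of these cells in the result was not tested.

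Genes of the same pathway outside the symbol rule gave 12 of 35 past the F-test, against 25.8% of all genes. Those with the smallest adjusted p were Daw1, which delivers outer dynein arms to the axoneme, Dynlrb2, a dynein light chain, Hspb11, the IFT-B partner of Ift27, and Dynlt3, another dynein light chain. This list shares Dynlrb2 with the ependymal markers. Dynlrb2 averaged 11.24 ± 0.37 in SEZ_GFPprom (SD, n = 4), 4.89 ± 0.71 in the CD24 sort (SD, n = 2) and 8.87 ± 0.88 in DIEC_GFP (SD, n = 4). Hspb11 averaged 9.19 ± 0.30, 7.25 ± 0.11 and 8.44 ± 0.36 in the same groups. Among the 35 genes SEZ_GFPprom was called higher for 6 against DIEC_GFP (10.1% of all genes), 2 against SEZ_GFP (2.63%), 4 against SEZ_Prom (4.4%) and 11 against the CD24 sort (8.98%), with 2 called lower against DIEC_GFP (7.78%).

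Foxj1, the forkhead regulator of motile cilia, measured 9.64, 9.93, 9.17 and 10.08 in SEZ_GFPprom, 6.0 and 5.95 in SEZ_GFP, 6.11 and 5.70 in SEZ_Prom, 6.04 and 5.58 in SEZ_CD24 and 7.43, 7.17, 8.17 and 7.82 in DIEC_GFP. SEZ_GFPprom was apart from all other arrays and DIEC_GFP came next. Its SEZ_GFPprom minus DIEC_GFP difference was 2.06 ± 0.25 (SE, adjusted p = 0.000403). Among the RFX factors, Rfx3, which acts at ciliary promoters, had an F-test adjusted p of 0.132, and Rfx2 of 0.929. Rfx4 passed (0.000136), with 8.63 ± 0.13 in SEZ_GFPprom (SD, n = 4), 5.38 ± 0.81 in the CD24 sort (SD, n = 2) and 9.17 ± 0.25 in DIEC_GFP (SD, n = 4). Rfx7 passed as well (0.0379). It was lower in SEZ_GFPprom than in the CD24 sort, by -2.60 (adjusted p = 0.0214), and higher in the CD24 sort than in DIEC_GFP, by 2.61 (adjusted p = 0.0162). Rfx1 (0.294) and Rfx5 (0.557) did not pass.

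**Figure D4:**
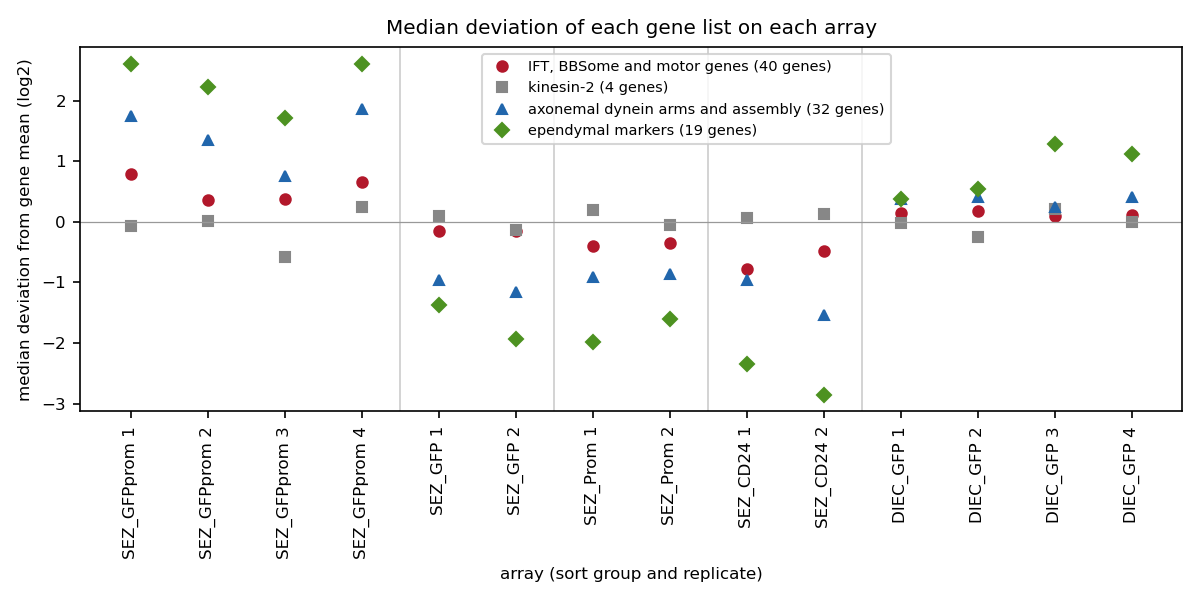
Median over each gene list of the log2 intensity minus the gene mean over the 14 arrays, for every array. The 40 members lie at 0.37 to 0.78 in SEZ_GFPprom and at -0.78 to -0.48 in SEZ_CD24, the axonemal dynein and ependymal lists spread further in the same directions, and kinesin-2 lies between -0.58 and 0.25 on all arrays.

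Within SEZ_GFPprom the arrays were not alike for these genes. Replicate 1 was the highest of the 4 for 18 members (20.4% of all genes) and replicate 3 the lowest for 18 (24.4% of all genes). Over the members, the median deviation of an array from the group mean was 0.24 for replicate 1 and -0.25 for replicate 3. The ependymal list was also lowest on the third of these arrays, at 1.72 on the plot of list medians, against up to 2.61 on the others.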

How the data were processed

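RNA of 14 sorted samples in 5 groups was measured on Affymetrix MOE430 2.0 arrays. The deposited values are array intensity values made by RMA, per the submitters' processing notes, with no software version given. They are linear and rounded to whole numbers, whereas the plan had assumed log2 values, so the log2 of each deposited intensity was taken with no pseudocount.

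Of 45101 probe sets, 34945 had 1 gene symbol and were kept, and 932 with several symbols, 9160 with none and 64 control probe sets were left out. The brightest probe set by the mean over all arrays stood for each of 18193 genes. Limma 3.58.1 in R 4.3.3 (lmFit, contrasts.fit, eBayes) fitted 1 mean per group to the 14 arrays without covariates, with two-sided tests, Benjamini-Hochberg adjustment over all genes and a threshold of 0.05. A difference has the group named before "minus" on top. The fit was tested on simulated data.

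Arrays have no depth, and their number limits the precision. Each array was left out in turn, and 12 other settings and separate tests of each probe set, the last chosen after seeing the data, were tried. Array values are given for members past the F-test, at most the 4 per complex with the smallest p, and for the 3 largest and 3 smallest called differences per comparison, besides Kif3a, which was chosen after its values were seen. Members, gene lists and comparisons were chosen with earlier results of these data known.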

Additional observations from a re-analysis of the deposited data

Results flagged for a closer look

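In the groups of 4 arrays, 80 sets of member values were examined for 1 array far from its group. This found 5, which is near the rate of about 1 in 20 that chance gives. All 5 lay in SEZ_GFPprom and were the lowest of its 4 arrays. Ift81 read 7.98 on the second replicate, against 9.18 to 9.31 on the others. Bbs2 read 4.32 on the third, against 5.93 to 6.25, and Dync2li1 read 7.85 on the third, against 8.88 to 9.06. Bbs9 read 3.00 on the fourth, a value near the array background, against 4.81 to 4.95. Bbs10 read 5.36 on the fourth, against 5.58 to 5.61, a gap that is small in itself because the other arrays were nearly equal.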

How the results depend on the processing

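No called difference of a member changed sign under a setting that gives 1 value per gene. Tested separately, 1 other probe set of Wdr19 and 2 of Lztfl1 went against the call of SEZ_GFPprom minus SEZ_CD24, and 1 of Tulp3 against that of SEZ_CD24 minus DIEC_GFP. With equal array medians, all-gene differences shifted by -0.12 for SEZ_GFPprom minus DIEC_GFP, -0.21 minus SEZ_GFP and -0.26 minus SEZ_CD24, by 0.14 for SEZ_CD24 minus DIEC_GFP and by -0.17 for SEZ_Prom minus SEZ_CD24. The counts of called members were then 3, 2, 12, 5 and 1. Of 52 called differences, 9 were called with each of the 14 arrays left out and 18 under every other setting.

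For SEZ_GFPprom minus DIEC_GFP the count of 5 became 3 with values under 10 set to 10 or after dropping shared-sequence probe sets. It became 1 with the 3′ to 5′ ratio as covariate, where 0 of the 5 kept their calls. Of all genes, 16.7%, 17.0% and 8.17% were called in these settings, against 17.8% in the main fit. For SEZ_GFPprom minus SEZ_GFP the count of 4 became 2 with quantile normalization, values under 10 set to 10 or only the groups compared. It was also 2 with each probe set tested separately, and 12 with array weights. Of all genes, or of all probe sets where these were tested, 2.02% to 3.00% were called in the settings that gave 2. Array weights called 7.50% of all genes, against 3.17% in the main fit. With only the groups compared, the 13 members against SEZ_Prom became 8 and the 19 against SEZ_CD24 became 11. The 8 of SEZ_CD24 minus DIEC_GFP became 5 with quantile normalization, while the share of all genes called went from 16.6% to 17.0%. The 1 of SEZ_Prom minus SEZ_CD24 became 0 without the dimmest 50% of genes or with values under 10 set to 10. It also became 0 with a gene's probe sets averaged, after dropping shared-sequence probe sets, with only the groups compared or with the ratio covariate. Of all genes, 0% to 12.5% were called in these settings, against 5.53% in the main fit. The 2 of SEZ_GFP minus DIEC_GFP became 0 with quantile normalization, equal medians, values under 10 set to 10 or only the groups compared. They also became 0 with the ratio covariate or a trend and robust prior, 1 with the mean of probe sets and 5 with array weights. Of all genes, 7.12% to 12.8% were called in the settings just named that gave 0 or 1. Array weights called 19.6%, against 12.7% in the main fit. The share of all genes called also moved under many settings and with arrays left out, and the cause of these changes was not tested.

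Leaving out 1 array gave 16 to 20 members for the F-test, 2 to 6 for SEZ_GFPprom minus DIEC_GFP, 1 to 8 minus SEZ_GFP, 2 to 16 minus SEZ_Prom and 8 to 18 minus SEZ_CD24. It gave 4 to 9 for SEZ_CD24 minus DIEC_GFP, 0 to 2 for SEZ_Prom minus SEZ_CD24 and 0 to 5 for SEZ_GFP minus DIEC_GFP.

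The replicate numbers were checked for pairing. Deviations of same-numbered arrays correlated at -0.188 to 0.129 over 22 pairs, and those of other-numbered arrays at -0.186 to 0.188. In a group of 2 the deviations mirror each other, so some of these values repeat. The check showed no pairing by number, but it cannot tell whether arrays share animals. A replicate block gave 13 members for the F-test and 4, 2, 11 and 13 for SEZ_GFPprom minus DIEC_GFP, SEZ_GFP, SEZ_Prom and SEZ_CD24, with 9 for SEZ_CD24 minus DIEC_GFP, 0 for SEZ_Prom minus SEZ_CD24 and 2 for SEZ_GFP minus DIEC_GFP, neither of them a member called without it. With the block, the F-test called 21.3% of all genes. The comparisons called 16.2%, 2.35%, 4.46%, 9.61%, 14.2%, 4.68% and 11.7%, in the order just named. The replicate numbers used here are those of the sample titles. The descriptions number some arrays otherwise, share no number between SEZ_GFPprom and another group, and were not used.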
